A study of Mus musculus with 18 samples.

Results

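The 10 genes described here encode fibrillins and matricellular proteins of mouse sciatic nerve and dorsal root ganglia (DRG): Fbn1, Fbn2, Fn1, Postn, Tnc, Sparc, Cthrc1, Thbs1, Thbs2 and Thbs4. They were chosen by symbol from a table of 28684 genes, with their levels and stage changes in these same 18 libraries already known, and all 10 were found and tested. Their levels, fold changes and calls are therefore descriptions, and nothing is supported with them. Bulk RNA was sequenced from 6 groups of 3 libraries: sciatic nerve at peak disease (PID21), during recovery (PID42) and with no disease, and DRG L3-L5 at the same stages, all from C57BL/6 mice. The labels give neither the way disease was induced, nor the meaning of PID, nor the sex or age of the mice. They also do not say that each library came from a separate animal, so a p-value here reflects the spread among libraries, which may be technical. In bulk tissue, fewer cells of a type and less RNA per cell cannot be told apart.

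Fibrillins assemble into extracellular microfibrils, which scaffold elastic fibres and store latent TGF-beta; Fbn1 encodes the main adult form and Fbn2 the form prominent in development. Matricellular proteins are secreted into the matrix but act mainly as modulators of cell adhesion, growth factor activity and collagen assembly, and they are known for low levels in resting adult tissue and high levels during growth and repair. Fibronectin, from Fn1, is the adhesive glycoprotein on which many of them assemble. In peripheral nerve, endoneurial and epineurial fibroblasts and Schwann cells are known sources of such matrix.

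Libraries held 13686465 to 23435562 counts, and levels are given as CPM, each count scaled to library size with TMM factors within a tissue. The 10 genes took 1.01 to 1.26% of all counts in peak nerve, 0.633 to 0.659% in recovery nerve and 0.595 to 0.748% in no-disease nerve. They took 0.117 to 0.18% in peak DRG, 0.109 to 0.161% in recovery DRG and 0.0699 to 0.0864% in no-disease DRG. Summed sensory neuron markers (Rbfox3, Uchl1, Prph, Scn10a and Avil) spanned 25.7 to 153 CPM over the 9 nerve libraries and 2921 to 4071 CPM over the 9 DRG libraries, so the tissue labels and the markers went together. A gene was called where edgeR's quasi-likelihood test gave an adjusted p under 0.05 over all genes tested. Log2 fold changes carry their standard error. Exons of Fbn1, Fbn2, Tnc and Thbs1 overlap an exon of another gene of the table, and with the strand setting not given their counts may hold reads of it. Those partner genes had at most 20 counts in any library.

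Promoter windows of the genes, 250 bases before to 50 after the annotated start, are shown for 3 of them, Tnc, Thbs2 and Thbs4. All 3 were called higher in peak nerve, though by unlike amounts (8.67-, 2.7- and 1.65-fold), and 1 of them held a searched motif. Postn was also called higher there, and its windows are not shown. The sequences are from RefSeq on GRCm38.p6, minus strand, read 5′ to 3′ on the gene's strand, at chr4:64046966-64047265 for Tnc, chr17:14694213-14694512 for Thbs2 and chr13:92794769-92795068 for Thbs4. Capitals in the Thbs4 window mark 2 adjoining matches to the TEAD motif GGAATG, read on the other strand and sharing 1 base.
Tnc: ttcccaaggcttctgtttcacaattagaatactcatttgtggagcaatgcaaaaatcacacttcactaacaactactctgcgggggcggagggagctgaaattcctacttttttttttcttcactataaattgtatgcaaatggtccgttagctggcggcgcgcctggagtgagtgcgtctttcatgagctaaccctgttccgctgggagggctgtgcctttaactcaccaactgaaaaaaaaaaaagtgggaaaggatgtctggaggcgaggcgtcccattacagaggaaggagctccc
Thbs2: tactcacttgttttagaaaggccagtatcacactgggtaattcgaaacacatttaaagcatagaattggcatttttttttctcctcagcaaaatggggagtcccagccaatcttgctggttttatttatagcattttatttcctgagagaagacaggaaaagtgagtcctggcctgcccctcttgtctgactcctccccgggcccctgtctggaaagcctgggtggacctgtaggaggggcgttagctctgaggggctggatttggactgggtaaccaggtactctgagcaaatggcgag
Thbs4: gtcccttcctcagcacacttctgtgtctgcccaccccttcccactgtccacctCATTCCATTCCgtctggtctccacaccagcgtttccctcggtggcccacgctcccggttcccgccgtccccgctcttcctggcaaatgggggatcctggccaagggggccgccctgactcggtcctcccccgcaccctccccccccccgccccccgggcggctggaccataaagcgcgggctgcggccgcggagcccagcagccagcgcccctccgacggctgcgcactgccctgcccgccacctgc
The table held windows for 6 of the 10 genes (Fbn1, Postn, Tnc, Sparc, Thbs2 and Thbs4; 8 windows). Both strands were searched for the AP-1 motif TGANTCA and for GGAATG. The AP-1 letters occurred in 0 of these 6 genes and in 7.81% of all 32851 windows of the table. The TEAD letters occurred in Thbs4 alone of the 6 genes, and in 14.7% of all windows. The motifs were not found in the Tnc and Thbs2 windows shown, which says only that those letters are not there.

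In sciatic nerve at peak disease, 3 genes that were the least abundant of the 10 per kilobase of exon without disease rose by far more than the others: Cthrc1 18.5-fold, Fbn2 10.2-fold and Tnc 8.67-fold over no-disease nerve. Thbs2, Postn, Fn1 and Thbs4, all more abundant, rose 1.65- to 2.70-fold. Sparc and Fbn1 were not called, and Thbs1 fell. Of the 10 genes, 7 were called higher and 1 lower, where 15% of the 16049 genes tested in nerve were called higher and 12.1% lower. The groups did not overlap for 9 of the 10 genes, all but Fbn1, where 41.3% of all genes showed no overlap. The median log2 fold change of the 10 genes was 0.94 and that of all genes tested 0.00.

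Fbn2, the fibrillin best known from developing tissue (chromosome 18, minus strand, 58008623 to 58210487 on GRCm38), had 97.2, 104 and 69.6 CPM in peak nerve, against 9.63, 8.25 and 8.44 CPM in no-disease nerve. Every peak library lay above every no-disease library, with a log2 fold change of 3.36 ± 0.16. Fbn1, the main adult fibrillin (chromosome 2, minus strand, 125300594 to 125507993), had 1333, 1052 and 963 CPM in peak nerve, against 1157, 899 and 823 CPM in no-disease nerve. These groups overlapped, and the log2 fold change was 0.22 ± 0.19. Per kilobase of exon, Fbn2 made up 6.22 to 8.33% of the 2 fibrillins in peak nerve and 0.758 to 0.932% in no-disease nerve. Fn1, encoding fibronectin (chromosome 1, minus strand, 71585520 to 71653200), had 3319, 2496 and 2106 CPM in peak nerve, against 1907, 1337 and 1244 CPM in no-disease nerve. The groups did not overlap, and Fn1 rose by 0.82 ± 0.19 on the log2 scale. That call was lost without no-disease replicate 2, where the log2 fold change was 0.74, and in a fit of all 18 libraries at once, where it was 0.76.

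**Figure D1:**
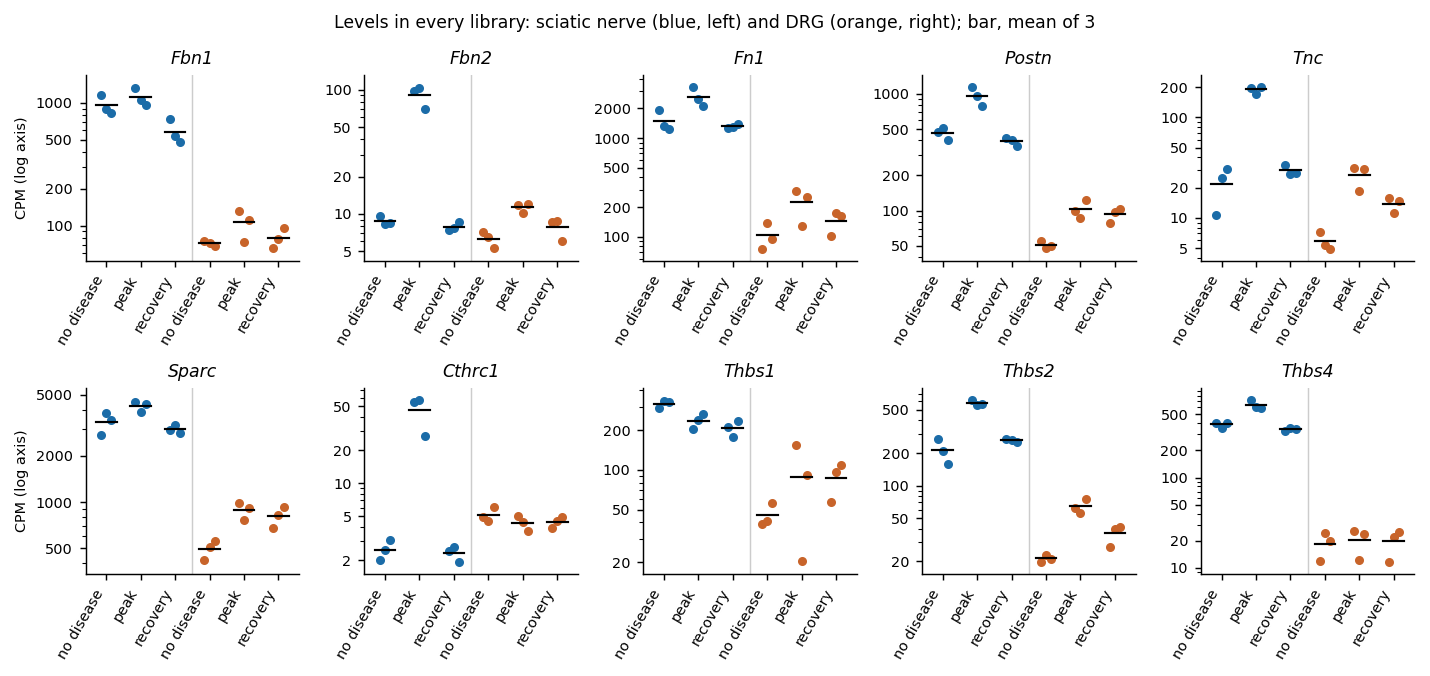
Level of each gene in each of the 18 libraries, in CPM on a log axis, with a panel per gene; points are libraries and black bars the mean of 3. In nerve (left in each panel) Fbn2, Tnc and Cthrc1 stand far above both other stages at peak, while in DRG (right) Cthrc1 lies between 3.67 and 6.06 CPM at every stage.

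Among the matricellular genes, Cthrc1, which encodes a secreted collagen triple helix repeat protein first found in injured rat arteries (chromosome 15, plus strand, 39076932 to 39087121), had 54.5, 56.7 and 27.2 CPM in peak nerve, against 1.99, 2.47 and 3.03 CPM in no-disease nerve. Peak replicate 3 was the lowest of its group, yet all 3 peak libraries exceeded all no-disease libraries, at a log2 fold change of 4.21 ± 0.31. Tnc encodes tenascin C, an anti-adhesive glycoprotein of developing and injured tissue (chromosome 4, minus strand, 63959785 to 64047015). It had 196, 170 and 201 CPM in peak nerve, against 10.8, 24.7 and 30.4 CPM in no-disease nerve. Its no-disease replicate 1 was the lowest of that group, and the log2 fold change was 3.12 ± 0.30. Postn encodes periostin, a fasciclin-domain protein that binds collagen and integrins (chromosome 3, plus strand, 54361109 to 54391037). It had 1138, 965 and 791 CPM in peak nerve, against 471, 509 and 403 CPM in no-disease nerve. The Postn groups did not overlap, and it rose by 1.06 ± 0.14 on the log2 scale. Sparc, which encodes a collagen-binding glycoprotein (chromosome 11, minus strand, 55394500 to 55423183), had 4476, 3836 and 4325 CPM in peak nerve, against 2751, 3782 and 3429 CPM in no-disease nerve. The lowest peak library exceeded the highest no-disease library only narrowly, the log2 fold change was 0.34 ± 0.13, and Sparc was not called except by DESeq2 (0.33).

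The 3 thrombospondins did not move as one. Thbs2, an antiangiogenic trimeric thrombospondin (chromosome 17, minus strand, 14665500 to 14694235), had 611, 557 and 560 CPM in peak nerve, against 271, 209 and 160 CPM in no-disease nerve, a log2 fold change of 1.43 ± 0.16. Thbs4, a pentameric thrombospondin of tendon and muscle (chromosome 13, minus strand, 92751590 to 92794818), had 728, 605 and 593 CPM in peak nerve, against 404, 357 and 403 CPM in no-disease nerve, a log2 fold change of 0.73 ± 0.10. Neither gene's groups overlapped, although the Thbs4 call was lost in the fit of all 18 libraries, where its log2 fold change was 0.67. Thbs1, the trimeric thrombospondin of platelets and an activator of latent TGF-beta (chromosome 2, plus strand, 118111876 to 118127133), had 202, 239 and 264 CPM in peak nerve, against 294, 330 and 324 CPM in no-disease nerve. All 3 peak libraries lay below the no-disease libraries, and Thbs1 fell by 0.43 ± 0.13 on the log2 scale. The Thbs1 call was lost without no-disease replicate 2 or 3, peak replicate 1 or 2, or recovery replicate 1, at log2 fold changes from -0.44 to -0.33, and in the fit of all 18 libraries, at -0.48. In the authors' deposited table, which gives no disease over peak, the log2 ratio of Thbs1 was 0.417 with a q-value of 0.0719. Other entries of that table had q-values under 0.05 where edgeR made no call. Against no disease these were Thbs1 and Fbn1 in recovery nerve, Thbs1 in recovery DRG, and Fn1 and Fbn1 in peak DRG. Between recovery and peak DRG they were Tnc and Thbs2.

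Within the thrombospondin family per kilobase of exon, Thbs1 made up 9.37 to 13.8% in peak nerve and 20.8 to 25.8% in no-disease nerve. Thbs2 made up 24.6 to 25.5% in peak nerve and 10.5 to 16.6% in no-disease nerve. Thbs4 was the most abundant of the family in nerve at each stage, with 57.2 to 62.5% at peak, 53.3 to 56.9% in recovery and 51.5 to 56.5% without disease. Comp, the fifth thrombospondin, made up 0.29 to 0.512% in peak nerve and 3.04 to 4.41% in no-disease nerve.

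**Figure D2:**
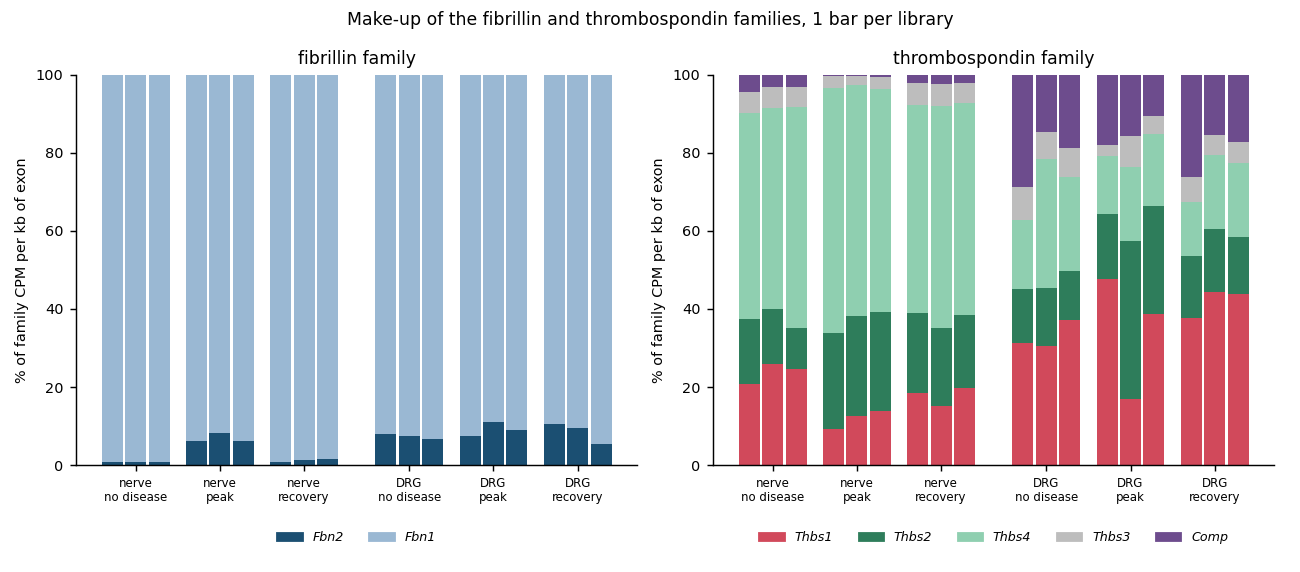
Share of each fibrillin (left) and thrombospondin (right) in its family's CPM per kilobase of exon, 1 stacked bar per library, for nerve and DRG at 3 stages. In nerve the Fbn2 share is larger at peak than at the other stages and the Thbs1 share smaller, while the DRG peak bars differ widely among themselves (Thbs1 from 17 to 47.8%).

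The order of the genes by level per kilobase changed little in nerve. Sparc led at every stage, with 1048 ± 79.5 CPM per kilobase at peak, 759 ± 43.3 in recovery and 858 ± 120 without disease (SD, n = 3 each), above every library of the next gene. Fn1 came next and then Thbs4 at each stage, but their libraries overlapped at peak and without disease. In peak nerve Postn (105 ± 19.4), Fbn1 (86.7 ± 15.4) and Thbs2 (77.5 ± 4.33 CPM per kilobase; SD, n = 3) followed, and neighbours in that order overlapped. Cthrc1 reached 27.4 ± 9.9 CPM per kilobase in peak nerve, against 1.53 ± 0.291 in no-disease nerve (SD, n = 3). Tnc reached 22.9 ± 1.89 in peak nerve, against 2.75 ± 1.23 in no-disease nerve. Fbn2 was the least abundant of the 10 at every stage in both tissues, with 6.45 ± 1.36 CPM per kilobase in peak nerve and 0.652 ± 0.0705 in no-disease nerve (SD, n = 3).

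Markers of other cells moved with the peak stage in nerve. The summed macrophage markers (5 genes) spanned 632 to 1044 CPM in peak nerve and 262 to 462 CPM in no-disease nerve, and 4 of the 5 were called higher. The summed proliferation markers (4 genes) spanned 185 to 294 CPM in peak nerve and 16.8 to 22.6 CPM in no-disease nerve, and all 4 were called higher. The summed fibroblast markers (8 genes) overlapped, at 6187 to 8250 CPM in peak nerve and 6977 to 8307 CPM in no-disease nerve, with 2 of the 8 called higher and 5 lower. The 5 Schwann cell markers overlapped as well, at 4281 to 7866 CPM in peak nerve and 4021 to 8095 CPM in no-disease nerve. The sums of the 5 mural and smooth muscle markers, at 348 to 619 CPM in peak nerve and 601 to 907 CPM in no-disease nerve, overlapped too, but 3 of the 5 (Tagln, Rgs5 and Des) were called lower. The 4 endothelial markers summed to 91.1 to 249 CPM in peak nerve and 322 to 347 CPM in no-disease nerve. The 5 perineurial markers summed to 471 to 736 CPM in peak nerve and 843 to 955 CPM in no-disease nerve, and the 4 platelet markers to 18.2 to 22.8 CPM in peak nerve, where Gp9 was at 0, and 27.8 to 36.2 CPM in no-disease nerve. Skeletal muscle markers summed to 3.7 to 31.2 CPM in peak nerve and 177 to 563 CPM in no-disease nerve, and the tendon and cartilage markers summed to at most 2.18 CPM in every nerve library. The 5 sensory neuron markers summed to 25.7 to 30.1 CPM in peak nerve and 58.8 to 153 CPM in no-disease nerve. Of these 5, 4 were called lower. The part of these cell types in the changes of the 10 genes was not tested.

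During recovery, 9 of the 10 genes fell in nerve relative to peak, where 11.1% of all genes were called lower, and Thbs1 was the exception. The 3 steepest rises were followed by the 3 steepest falls: Cthrc1 had 2.4, 2.63 and 1.94 CPM in recovery nerve, a log2 fold change over peak of -4.31 ± 0.30. Fbn2 had 7.36, 7.72 and 8.53 CPM in recovery nerve, at -3.52 ± 0.16 over peak. Tnc had 33.6, 27.6 and 28 CPM in recovery nerve, at -2.67 ± 0.29 over peak. All of these recovery libraries lay below every peak library. The summed proliferation markers spanned 37.5 to 40.2 CPM in recovery nerve and 185 to 294 CPM in peak nerve, with all 4 called lower. The summed macrophage markers spanned 424 to 579 CPM in recovery nerve and 632 to 1044 CPM in peak nerve, with 3 of the 5 called lower. The part of these cells in the falls was not tested.

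The other 6 genes that fell did so by less. Postn had 420, 399 and 357 CPM in recovery nerve, a log2 fold change over peak of -1.30 ± 0.14. Thbs2 had 269, 264 and 252 CPM in recovery nerve, at -1.14 ± 0.16 over peak. These recovery libraries too lay below every peak library. Fn1 had 1261, 1300 and 1398 CPM in recovery nerve, at -1.0 ± 0.19 over peak, and Thbs4 329, 356 and 348 CPM, at -0.90 ± 0.10. Fbn1, which was not called at peak, fell to 736, 542 and 478 CPM in recovery nerve, at -0.93 ± 0.19 over peak, and Sparc to 2957, 3174 and 2828 CPM, at -0.50 ± 0.13. The groups did not overlap for any of the 9 genes that fell, where 40.6% of all genes showed no overlap. Thbs1 had 211, 176 and 235 CPM in recovery nerve, overlapping the peak libraries, at -0.18 ± 0.13. The Sparc call was lost without peak replicate 1 or any single recovery library (log2 fold changes from -0.54 to -0.45), and the Fbn1 call without recovery replicate 2 (-0.88).

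Set against no-disease nerve, 0 of the 10 genes were called in recovery nerve, where 1.02% of all genes were. At an unadjusted p under 0.05 edgeR gave 2, Fbn1 and Thbs1, and DESeq2 called the same 2 lower after adjustment. Their log2 fold changes were -0.71 ± 0.19 for Fbn1 and -0.61 ± 0.13 for Thbs1, and the recovery libraries of both lay below every no-disease library. Thbs1 was called without peak replicate 2 or 3, at -0.61 and -0.60. Thbs4 also showed no overlap, with a log2 fold change of -0.17 ± 0.10. No overlap was seen in 21.7% of all genes. Tnc had the highest log2 fold change of the 10, 0.45 ± 0.29, with overlapping groups. As a share of the no-disease mean, the recovery mean was 92.9% for Cthrc1, 89.7% for Fbn2, 85% for Postn, 123% for Thbs2, 61% for Fbn1 and 65.7% for Thbs1.

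**Figure D3:**
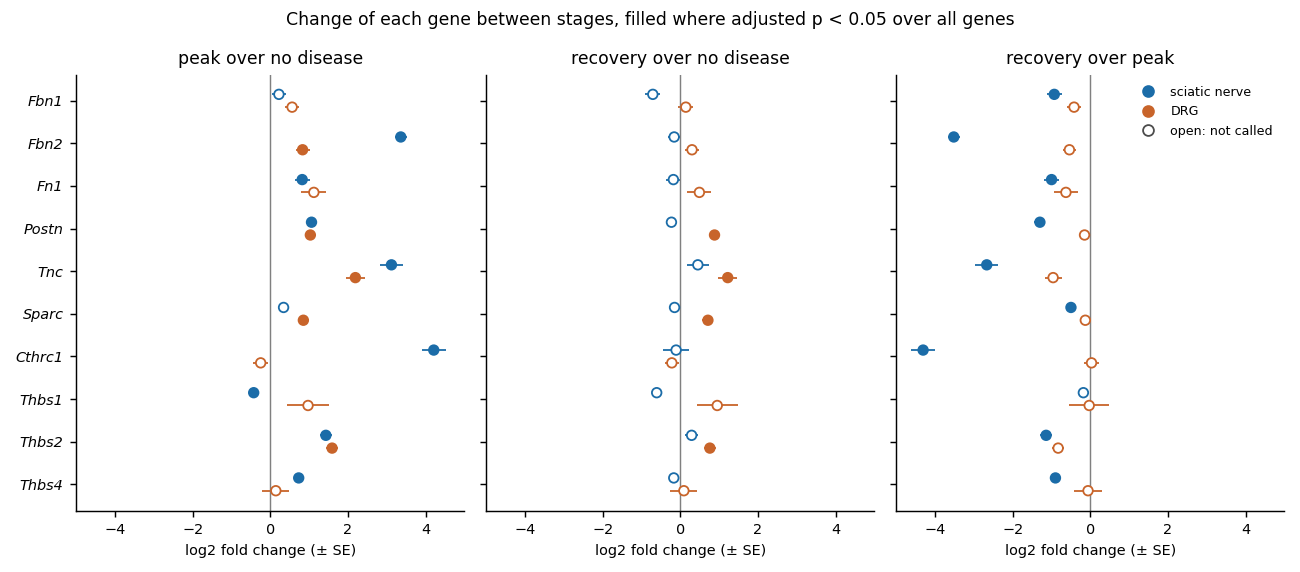
Log2 fold change of each gene, with its standard error, for peak over no disease, recovery over no disease and recovery over peak; blue is nerve, orange DRG, and filled points have an adjusted p under 0.05 over all genes tested. In nerve the points of Fbn2, Tnc and Cthrc1 lie beyond 3 at peak and below -2.6 for recovery over peak, and no nerve point is filled for recovery over no disease.

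In DRG at peak disease, Tnc, Thbs2, Postn, Sparc and Fbn2 rose, by 1.78-fold (Fbn2) to 4.56-fold (Tnc) over no-disease DRG, and no member was called lower. These 5 of 10 stood against 4.42% of the 16482 genes tested in DRG that were called higher. The same 5 genes were those whose groups did not overlap, where 33.5% of all genes showed no overlap. The median log2 fold change of the 10 genes was 0.91 and that of all genes tested 0.01. The summed Schwann cell markers spanned 3120 to 3543 CPM in peak DRG and 1829 to 2412 CPM in no-disease DRG, and the macrophage markers 101 to 147 CPM in peak DRG and 64.3 to 68.7 CPM in no-disease DRG. The fibroblast markers overlapped, at 577 to 1190 CPM in peak DRG and 772 to 969 CPM in no-disease DRG. The part of these cell types in the DRG changes was not tested.

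Tnc had 31.6, 18.3 and 30.8 CPM in peak DRG, against 7.28, 5.42 and 4.94 CPM in no-disease DRG, a log2 fold change of 2.19 ± 0.24. Thbs2 had 61.9, 56.3 and 75.7 CPM in peak DRG, against 19.9, 23.1 and 21.3 CPM in no-disease DRG, a log2 fold change of 1.59 ± 0.16. Both genes were thus clear of their no-disease range in every peak library. Postn had 99.5, 87 and 124 CPM in peak DRG, against 54.5, 47.7 and 50.1 CPM in no-disease DRG, a log2 fold change of 1.03 ± 0.14. Sparc had 979, 764 and 918 CPM in peak DRG, against 419, 508 and 554 CPM in no-disease DRG, a log2 fold change of 0.85 ± 0.14. Sparc was thus called in DRG and not in nerve, but the difference between the tissues was itself not called (-0.54 ± 0.20), except without nerve no-disease replicate 1 (-0.64). Fbn2 had 11.7, 10.2 and 12 CPM in peak DRG, against 7.17, 6.49 and 5.33 CPM in no-disease DRG, a log2 fold change of 0.83 ± 0.18. Its call was lost without any 1 no-disease library or without peak replicate 1 or 3, at log2 fold changes from 0.73 to 0.92.

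DRG peak replicate 2 was the lowest peak library in 9 of the 10 genes, all but Cthrc1. Thbs1 had 155, 20.5 and 91.5 CPM in peak DRG, against 38.6, 41.3 and 55.7 CPM in no-disease DRG, so replicate 2 lay below every no-disease library and the other 2 above them. Fn1 had 292, 128 and 254 CPM in peak DRG, against 75.5, 139 and 95.9 CPM in no-disease DRG. Fbn1 had 133, 74.4 and 112 CPM in peak DRG, against 75.4, 72.9 and 68.1 CPM in no-disease DRG. With all libraries the log2 fold changes were 0.97 ± 0.53 for Thbs1, 1.12 ± 0.32 for Fn1 and 0.56 ± 0.19 for Fbn1, and in each of these genes replicate 2 was near or below the no-disease libraries. Without DRG peak replicate 2 they were 1.43 for Thbs1, 1.39 for Fn1 and 0.75 for Fbn1, all 3 were called, and 8 of the 10 genes were called higher. Calls over all genes depend on the libraries as well: 728 of 16482 genes were higher with all libraries, and 195 to 1288 with any 1 left out. Fn1 was also called without DRG recovery replicate 1, at 1.11, and DESeq2 called Fn1 (1.12) and Fbn1 (0.56) with all libraries. Thbs4 had 25.6, 12.3 and 23.7 CPM in peak DRG, against 11.8, 24.3 and 19.6 CPM in no-disease DRG, with overlapping groups. Replicate 2 also had the lowest summed fibroblast markers of peak DRG, with 1069, 577 and 1190 CPM in replicates 1 to 3. Cthrc1 had 5.02, 4.42 and 3.67 CPM in peak DRG, against 4.96, 4.59 and 6.06 CPM in no-disease DRG, a log2 fold change of -0.25 ± 0.19.

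In recovery DRG, Tnc, Postn, Thbs2 and Sparc were still called higher than in no-disease DRG, 4 of 10 genes where 2.44% of all genes were called higher. Tnc had 15.7, 11.1 and 14.6 CPM in recovery DRG, a log2 fold change over no disease of 1.22 ± 0.24. Postn had 78.3, 98.1 and 103 CPM, at 0.88 ± 0.14, and Sparc 677, 826 and 925 CPM, at 0.71 ± 0.14. Thbs2 had 27.4, 40 and 41.6 CPM in recovery DRG, at 0.76 ± 0.16. Every recovery library of these 4 genes and of Thbs1 (57.5, 95.8 and 108 CPM) lay above every no-disease library, where 26.5% of all genes showed no overlap. All 4 calls rested on each of 5 libraries: 0 of the 10 genes were called without no-disease replicate 1, 2 or 3 or recovery replicate 2 or 3. Calls over all genes were lost too: 402 genes were higher with all libraries and 2 without no-disease replicate 1. For the 4 genes the size of the change moved less than the calls. Without 1 of those 5 libraries, the log2 fold changes ranged from 1.11 to 1.39 for Tnc, 0.79 to 0.91 for Postn, 0.59 to 0.80 for Sparc and 0.65 to 0.80 for Thbs2. The Thbs2 call was also lost without peak replicate 1 (0.76) and the Sparc call without peak replicate 3 (0.70). Under limma-voom the calls of Tnc (1.22) and Thbs2 (0.75) were lost. Recovery replicate 1 was the lowest of its group in all of the 10 genes but Tnc and Fbn2, and its summed fibroblast markers were 720 CPM against 1315 and 1343 CPM in the other 2 recovery libraries. The summed Schwann cell markers spanned 2895 to 3622 CPM in recovery DRG and 1829 to 2412 CPM in no-disease DRG, with 2 of the 5 called higher. The summed macrophage markers spanned 81.2 to 163 CPM in recovery DRG and 64.3 to 68.7 CPM in no-disease DRG, with 3 of the 5 called higher. The part of these cells was not tested.

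Between recovery and peak DRG, 0 of the 10 genes were called, where 0.14% of all genes were. At an unadjusted p under 0.05 edgeR gave 3, Fbn2, Tnc and Thbs2, and DESeq2 called Tnc and Thbs2 lower after adjustment. Their log2 fold changes were -0.54 ± 0.17 for Fbn2, -0.96 ± 0.22 for Tnc and -0.83 ± 0.16 for Thbs2, and these were the 3 genes whose groups did not overlap, against 15.9% of all genes. Without recovery replicate 1, Tnc (-1.07) and Thbs2 (-0.67) were called lower. Postn stood at -0.15 ± 0.14, with a recovery mean of 90% of the peak mean, and Sparc at -0.13 ± 0.14, with 91.3%. In nerve the recovery mean was 40.6% of the peak mean for Postn and 70.9% for Sparc.

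The 2 tissues were set against each other in a fit of all 18 libraries. The labels pair no nerve with a DRG, so the fit treated the libraries as independent, although nerve and DRG may share animals. The peak response was larger in nerve than in DRG for Cthrc1 and Fbn2, 2 of 10 genes where 6.63% of all genes were called higher. On the log2 scale the difference was 4.42 ± 0.37 for Cthrc1 (edgeR adjusted p = 4.21e-06) and 2.48 ± 0.25 for Fbn2 (2.21e-05), beside a median of -0.08 over all genes. For Tnc the difference was 0.89 ± 0.40 and not called, and for Postn it was -0.00 ± 0.21, so that its rise of about the same size in both tissues differed by less than that error. For Thbs1 it was -1.44 ± 0.61 with all libraries and -1.91, then called, without DRG peak replicate 2. The change between peak and recovery was more negative in nerve than in DRG for 4 of the 10 genes, where 4.38% of all genes were called lower. These were Cthrc1 at -4.31 ± 0.36 (edgeR adjusted p = 1.42e-05), Fbn2 at -2.95 ± 0.24 (1.42e-05), Tnc at -1.67 ± 0.38 (0.0185) and Postn at -1.12 ± 0.21 (0.00754). Thbs2, which rose in both tissues, had a difference of -0.28 ± 0.25 here and of -0.21 ± 0.25 in the peak response, neither called.

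Without disease, 8 of the 10 genes were higher in nerve than in DRG and Cthrc1 was lower, where 37.4% of all genes were called higher and 37% lower. The widest gaps, as log2 differences of nerve over DRG, were 4.29 ± 0.31 for Thbs4, 3.77 ± 0.32 for Fn1 and 3.64 ± 0.24 for Fbn1. All 8 fibroblast markers were called higher in healthy nerve too, with a median log2 difference of 3.57 and sums of 6977 to 8307 CPM in nerve and 772 to 969 CPM in DRG, as were 5 of 5 macrophage and 4 of 4 endothelial markers. The part of these cells in the tissue difference was not tested. Cthrc1 stood at -1.16 ± 0.28, and at peak its order was the reverse, with 27.2 to 56.7 CPM in nerve and 3.67 to 5.02 CPM in DRG. Fbn2 was not called between the healthy tissues, at 0.38 ± 0.18, but it was called without DRG no-disease replicate 1 (0.48), nerve peak replicate 3 (0.38) or DRG recovery replicate 3 (0.38), and with upper-quartile scaling (0.47). In DRG, Thbs1 made up 30.5 to 37.3% of the thrombospondin family per kilobase without disease and Thbs4 17.6 to 33.1%, whereas in nerve Thbs4 was above Thbs1 in every library.

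Of 17 partners that build microfibrils and elastic fibres with the fibrillins, 2 were called higher and 7 lower in peak nerve than in no-disease nerve, where 15% of all genes were called higher and 12.1% lower. Their median log2 fold change was -0.51, and a count of 2 higher is near that share of all genes. Mfap2, which encodes a microfibril-associated glycoprotein, rose by 1.24 ± 0.24, with 9.66 ± 3.04 CPM in peak nerve and 4.09 ± 0.431 CPM in no-disease nerve (SD, n = 3), and Efemp2, encoding fibulin 4, rose by 0.39 ± 0.09. Fbln1 (fibulin 1), Loxl1 (a lysyl oxidase that crosslinks elastin) and Emilin2 fell by 0.87 to 1.07 on the log2 scale. In DRG at peak 2 of the 17, Ltbp1 and Ltbp3, were called higher and none lower, with a median of 0.27. Of all genes tested in DRG, 4.42% were called higher and 3.21% lower.

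Of 18 other matricellular genes tested, 0 were called higher and 6 lower in peak nerve, where 15% of all genes were called higher and 12.1% lower, and their median log2 fold change was -0.30. Comp, the cartilage thrombospondin, had 3.96 ± 1.12 CPM in peak nerve and 23.4 ± 6.15 CPM in no-disease nerve (SD, n = 3), a log2 fold change of -2.55 ± 0.23, and it rose again by 1.73 ± 0.23 in recovery nerve over peak. Spock3, a testican of the SPARC family, fell by 1.86 ± 0.41 on the log2 scale in peak nerve, and its paralog Spock2 by 1.09 ± 0.27. In DRG at peak 1 of the 18, Wisp1, was called higher and 3 lower, where 4.42% of all genes were called higher and 3.21% lower. The difference of the peak response between nerve and DRG was -2.91 ± 0.49 for Comp (edgeR adjusted p = 0.00131).

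Among 12 receptors of these proteins, 3 were called higher and 1 lower in peak nerve, not far from the 15% and 12.1% of all genes. Stab1, a scavenger receptor that takes up SPARC, had 638 ± 128 CPM in peak nerve and 227 ± 68.5 CPM in no-disease nerve (SD, n = 3), a log2 fold change of 1.49 ± 0.20. The integrin subunit gene Itgb3 rose by 0.96 ± 0.13 and Itgb1 by 0.52 ± 0.08, and Itga9, whose integrin binds tenascin C, fell by 0.44 ± 0.12. In DRG at peak 4 of the 12 were called higher, where 4.42% of all genes were, and none lower, with Stab1 at 1.44 ± 0.17 and Itgb1 at 0.39 ± 0.07. Of 12 genes of the TGF-beta axis, 3 were called higher and 2 lower in peak nerve, again not far from the 15% and 12.1% of all genes. The receptor gene Tgfbr1 rose by 1.39 ± 0.18, the ligand Tgfb1 by 0.70 ± 0.20 and the feedback repressor Skil by 0.69 ± 0.12. The ligand Tgfb3 fell by 0.74 ± 0.11. Of the same 12 genes, 3 were called higher in peak DRG, where 4.42% of all genes were, and none lower, with a median of 0.38.

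**Figure D4:**
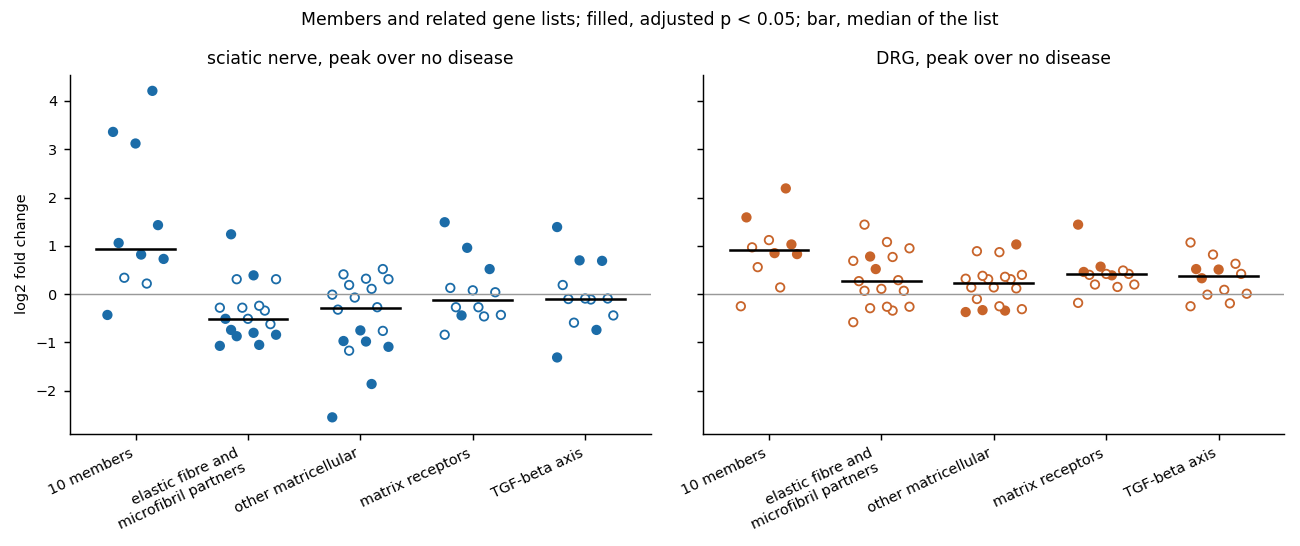
Log2 fold change of peak over no disease for the 10 genes and for 4 related lists, in nerve (left) and DRG (right); each point is a gene, filled where the adjusted p is under 0.05, and bars are list medians. In nerve the median of the 10 genes is 0.94 while those of the microfibril partners and the other matricellular genes are -0.51 and -0.30; in DRG the medians of all 5 lists are above 0.

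The genes whose pattern over the 6 group means was most like each member were ranked by the root-mean-square difference of centred log2 CPM among 14013 genes, as a description. Nearest to Cthrc1 were Ncapg (0.47), Hmmr (0.49) and Bub1 (0.49), and among the 3 nearest to Fbn2 were Csrp2 (0.38) and Kif2c (0.38). For example, Hmmr averaged 18.9 CPM in peak nerve and 1.39 CPM in no-disease nerve. In DRG the 2 genes differed in direction. Hmmr averaged 3.19 CPM at peak and 1.66 CPM without disease, and Cthrc1 4.37 CPM at peak and 5.2 CPM without disease. Among the 3 nearest to Postn were Col8a1 (0.12) and Col1a2 (0.13), the last with 4822 CPM in peak nerve and 2813 CPM in no-disease nerve. Nearest to Tnc were Lgr6 (0.29), Corin (0.36) and Ms4a14 (0.39), and to Thbs2 Ms4a6d (0.18), Pmp2 (0.24) and Lum (0.24). Closer matches were found for Fbn1, with Col6a3 (0.11), for Fn1, with Mmp2 (0.11), for Sparc, with Casp8 and Ltbp1 (0.07 each), and for Thbs1, with Srgn (0.12). Thbs4 was nearest to Osr2 (0.25), and among the 10 genes themselves Fbn2 and Cthrc1 differed by 0.53 and Fbn2 and Tnc by 0.60.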

How the data were processed

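The 10 genes and the related gene lists were chosen with earlier results of these data known. Bulk RNA-seq of nerve and DRG gave 18 libraries, for which the authors deposited whole-number read counts of 28684 Ensembl genes; all fits and levels start from these counts. The deposited files also hold a normalised signal sheet, not used for any value here, and a sheet of pairwise log2 ratios with q-values, per the file headers. From the latter, values are printed only for Thbs1 in nerve between no disease and peak. Its entries under 0.05 that edgeR did not call are named without values. The submitters' processing notes list STAR 2.6.1a, kallisto 0.44.0, Bowtie2, GRCm38 and mm10. No source used here says which tool made the counts or with what strand setting.

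Stages were compared within a tissue over its 9 libraries, with stage as the only term, by the quasi-likelihood F test of edgeR 4.0.16 (R 4.3.3) after filterByExpr and TMM. P-values were adjusted over all genes tested by Benjamini-Hochberg, and a call is an adjusted p under 0.05. Differences between tissues came from 1 fit of all 18 libraries. Alternatives were DESeq2 1.42.0, limma-voom 3.58.1, other scalings, no filter on low counts, a replicate block, all 18 libraries in 1 fit, and leaving out each library in turn. The test was also run on simulated counts in which every gene had the same dispersion. Real genes differ in this, so that run does not vouch for genes whose libraries vary widely. Library totals of 13686465 to 23435562 counts leave the lowest genes the least precise.

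Positions and exon lengths are from GENCODE vM21 on GRCm38, which held 28578 of the IDs. Levels per kilobase divide CPM, scaled over all 18 libraries, by the union of exons. From each related list the text names the called genes with the most extreme changes in peak nerve, up to 3 each way; those named for DRG alone were chosen after their values were seen. Some genes that these rules would name are not reported here. Likeness used genes with at least 1 CPM on average and a prior count of 2.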

Additional observations from a re-analysis of the deposited data

Results flagged for a closer look

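Several changes differed between nerve and DRG by the test of the difference itself, in edgeR's fit of all 18 libraries. The peak response, as a log2 difference of nerve minus DRG, was 4.42 ± 0.37 for Cthrc1 (adjusted p = 4.21e-06) and 2.48 ± 0.25 for Fbn2 (adjusted p = 2.21e-05). For both genes each of the 3 peak libraries exceeded each of the 3 no-disease libraries in nerve, and in DRG this held for Fbn2 only. The change between peak and recovery, as the same difference, was -4.31 ± 0.36 for Cthrc1 (adjusted p = 1.42e-05), -2.95 ± 0.24 for Fbn2 (adjusted p = 1.42e-05), -1.67 ± 0.38 for Tnc (adjusted p = 0.0185) and -1.12 ± 0.21 for Postn (adjusted p = 0.00754). The genes were chosen with these results known, and why the tissues differ was not tested.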

How the results depend on the processing

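Over 90 results of the 10 genes (9 comparisons each), 1680 values were recomputed, of which 1585 kept their direction and their side of the threshold, 44 lost a call, 30 gained one and 21 changed sign. Signs were read after rounding, so Postn in the peak response of nerve minus DRG, at -0.00, could not be counted as changing sign. In settings other than leaving out a library it ranged from -0.01 to 0.09. Apart from Postn there, and other than by leaving out a library, 1 gene changed sign: Thbs1 between recovery and peak DRG. It stood at -0.03 with all libraries and 0.36 under limma-voom, and the cause was not tested. The count of the 10 genes called lower in recovery nerve against no disease, 0 in the edgeR fit, was 2 without the filter on low counts and 2 under DESeq2. The count lower in recovery DRG against peak, also 0, was 2 without the filter and 2 under DESeq2. The count higher in recovery DRG against no disease, 4 in the edgeR fit, was 2 under limma-voom. In the fit of all 18 libraries the count lower in peak nerve was 0, against 1 in the nerve fit.

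Counts over all genes moved more. Recovery nerve against no disease gave 101 genes higher and 63 lower, which became 176 and 140 without the filter, 283 and 267 under DESeq2, 55 and 35 under limma-voom, and 170 and 145 with all 18 libraries. Recovery DRG against no disease gave 402 higher, which became 674 without the filter and 918 under DESeq2. Recovery DRG against peak gave 5 higher and 18 lower, which became 46 and 92 without the filter, 101 and 191 under DESeq2, and 1 and 11 under limma-voom. DESeq2 called 843 genes lower in peak DRG (edgeR 529) and 1203 with a more negative change between peak and recovery in nerve than in DRG (edgeR 758). All 18 libraries in 1 fit called 3026 genes lower in peak nerve (nerve fit 1949).

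The labels link same-numbered libraries by the number alone. Between stages, the correlation of their deviations from the group means was -0.05 to 0.22 in nerve and -0.38 to 0.35 in DRG. Between nerve and DRG of the same stage it was -0.08 to 0.19. Such correlations cannot show whether libraries came from the same animals. With the replicate number as a block, 1 of the 10 genes was called lower in recovery nerve against no disease, 0 genes of all were higher and 4 lower in recovery DRG against peak, and Thbs1 stood at 0.16 in that last comparison. Among single genes, the block also gained the call of Fbn1 in recovery nerve against no disease (-0.72) and of Fbn2 between the healthy tissues (0.39), and lost that of Sparc in recovery nerve against peak (-0.50).

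Leaving out each library in turn, the count of the 10 genes called lower was 0 to 1 in peak nerve and 0 to 1 in recovery nerve against no disease. It was 0 to 2 for recovery DRG against peak, and 0 to 1 for the peak response of nerve minus DRG. The count called higher was 4 (without no-disease replicate 1) to 8 (without peak replicate 2) in peak DRG, and 0 to 4 in recovery DRG against no disease. Over all genes, recovery nerve against no disease gave 13 to 161 higher and 0 to 149 lower, lowest without no-disease replicate 2 for the first and without recovery replicate 3 for the second, and highest for both without peak replicate 2. Recovery nerve against peak gave 819 (without recovery replicate 2) to 2145 lower. The DRG counts were lowest without no-disease replicate 1 and highest without recovery replicate 1: 195 to 1288 higher and 119 to 1234 lower at peak, 2 to 1758 higher in recovery against no disease, and 0 to 579 higher and 0 to 1175 lower in recovery against peak. The peak response was larger in nerve than in DRG for 752 (without DRG no-disease replicate 3) to 1367 genes. The change between peak and recovery was more negative in nerve for 321 (without DRG recovery replicate 2) to 1292 genes (without DRG recovery replicate 1).

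These log2 fold changes near 0 changed sign when 1 library was left out. In recovery nerve against no disease, Cthrc1 ranged from -0.27 to 0.07 and Fn1 from -0.30 to 0.03. In DRG, Thbs4 ranged from -0.11 to 0.40 at peak, from -0.17 to 0.33 in recovery against no disease and from -0.33 to 0.20 in recovery against peak. Fbn1 ranged from -0.02 to 0.24 in recovery DRG against no disease. In recovery DRG against peak, Cthrc1 ranged from -0.10 to 0.14 and Thbs1 from -0.51 (without peak replicate 2) to 0.64 (without peak replicate 1). Between nerve and DRG, Thbs2 ranged from -0.40 to 0.03 in the peak response and Thbs1 from -0.79 to 0.36 in the change between peak and recovery. Postn, at -0.00 with all libraries, ranged from -0.14 to 0.13 in the peak response. Depth limits the least abundant genes most: Cthrc1 rested on 27 to 47 counts per library in no-disease nerve.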
